A study of Mus musculus with 8 samples.

Results

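The genotype effect on mouse epidermis that recurred in 4 matched pairs of libraries was followed across all genes. Each pair set 1 library labelled Ovol1/2 iDKO beside the Control library with the same DPI and biological replicate number, and the 4 pairs used all 8 libraries of the series. RNA was taken from the epidermis, the outer epithelium of mouse skin, after isolation with trypsin. Control and Ovol1/2 iDKO mice were sampled at 25 DPI and at 52 DPI, with 2 biological replicates in each of the 4 groups. The labels give no strain, age, promoter or inducing agent, do not spell out DPI or iDKO, and name no treatment of the Control mice. Low counts removed genes from the test, which left 17839 of 54838, and 14109 of these are annotated as protein coding.

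The proteins Ovol1 and Ovol2 are zinc finger regulators that act in epithelia mainly as repressors and are known for holding epithelial cells in their differentiated state. Zeb1 is a known target of their repression. Zeb1 in turn represses epithelial genes through E-box sites and is a main driver of epithelial to mesenchymal transition, in which epithelial cells lose junctions and gain motility and matrix genes.

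Library totals ran from 9824307 to 50711381 counts, and values are given below as CPM, counts scaled by TMM to library size, in the order 25 DPI replicate 1, 25 DPI replicate 2, 52 DPI replicate 1 and 52 DPI replicate 2. The replicate 2 libraries carried 95.4% to 95.7% of their strand-assigned counts on the second strand, against replicate 1 libraries at 49.76% to 49.97%, so the library kind was the same within a pair and differed between replicate numbers. All 4 libraries at 25 DPI held Y-linked transcripts and none of the 4 at 52 DPI did, so sex was also the same within a pair and cannot be told apart from time. The epidermal markers Krt5, Krt14, Krt1, Krt10, Trp63 and Cdh1 were detected in all 8 libraries, the lowest value being Cdh1 at 347 CPM. The Control 25 DPI replicate 1 library stood apart in the summed levels of some gene lists. The macrophage and monocyte list summed to 30717, 3924, 9802 and 5112 CPM in the control libraries. In the iDKO libraries it summed to 16737, 3614, 8132 and 9514 CPM. The cholesterol efflux and fatty acid oxidation list had control sums close to these, 33083, 5618, 11622.5 and 6762 CPM. Which members set either sum was not tested. Erythroid sums were 111, 1.19, 1.37 and 0.861 CPM in the control libraries and 3.19, 2.72, 0.628 and 18.3 CPM in the iDKO libraries. In bulk tissue, fewer cells of a type and less RNA per cell cannot be told apart.

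The labels could not be checked by the targeted genes. Ovol1 had more reads in the iDKO library of every pair, with log2 differences of 0.13, 2.49, 0.66 and 0.30, and Ovol2 likewise, with 0.84, 0.52, 0.06 and 0.28. Neither passed edgeR's quasi-likelihood test with the pair as block (adjusted p = 0.996 for both), the log2 fold changes being 0.86 (SE 0.39) and 0.43 (SE 0.18). Which exons the alleles remove is not stated in the labels, and counts over a whole gene can miss the loss of 1 exon. Below, iDKO stands for the libraries labelled Ovol1/2 iDKO.

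The number of genes called across the 4 pairs depended on the tool, and most of those called by DESeq2 were higher in iDKO. Across the 4 pairs edgeR called 1 gene at an adjusted p under 0.05 (0.00561% of tested genes). With the same pair block limma-voom also called 1 and DESeq2 called 73 (0.409%), 60 higher and 13 lower in iDKO. Of these 73 genes, 59 were higher in all 4 pairs and 12 lower in all 4. The 2 exceptions were Ccl22, a chemokine, and the pseudogene Gm12912. At an unadjusted p under 0.05 edgeR gave 517 higher genes (2.9%) and 201 lower genes (1.13%). Together these 718 genes were a smaller share of tested genes than 0.05, the share expected at this threshold without a genotype effect.

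Direction alone was balanced, and size was not. Among tested genes 1201 were higher in iDKO in all 4 pairs (6.73%) and 1195 lower in all 4 (6.7%). If signs fell at random in each pair, a share of 0.125 of genes would keep 1 direction in all 4, either way. A shared direction alone therefore does not show a genotype effect. The median log2 fold change was 0.56 among the 1201 higher genes and -0.30 among the 1195 lower genes, and 238 against 98 of them differed by at least 1 on the log2 scale. A difference of at least 1 in every pair was found for 34 higher and 4 lower genes, of at least 1.5 for 15 and 1, and of at least 2 for 7 and 0. All 4 iDKO libraries lay above all 4 control libraries for 84 genes (0.471%) and below them for 42 (0.235%). The balance of direction depended on scaling: with library size alone 1506 genes were higher and 827 lower in every pair, and with DESeq2's size factors 1108 and 1345. This scaling moved the median log2 fold change of all genes from 0.01 to 0.04 and -0.0028 respectively.

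The pairs were compared over all tested genes, the called ones included. Over the 17839 genes the log2 differences of the 25 DPI replicate 1 pair correlated with those of the other pairs at 0.01, -0.09 and -0.22 (Pearson's r over genes, which are not independent replicates). The remaining pairs gave 0.06 to 0.22, the last between both 52 DPI pairs. Over the 12825 genes whose mean log2 CPM reached 1 the values were 0.05, -0.11 and -0.30 for the 25 DPI replicate 1 pair with the others, and 0.10 to 0.32 for the remaining pairs. The SD of the log2 difference over genes was 1.15 in the 25 DPI replicate 1 pair, 0.71 in the 25 DPI replicate 2 pair, 0.62 in the 52 DPI replicate 1 pair and 1.01 in the 52 DPI replicate 2 pair.

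Zeb1 was at 3.33, 3.04, 2.08 and 2.04 CPM across the controls and at 14.4, 35.3, 17 and 20.5 CPM across the iDKO libraries. Every iDKO library exceeded every control library by a wide margin, the control values staying within 2.04 to 3.33 CPM. The log2 fold change was 3.01 (SE 0.29), called by DESeq2 (adjusted p = 8.51e-18) and not by edgeR (adjusted p = 0.111). Without the 25 DPI replicate 1 pair edgeR called Zeb1 too. Its exons overlap an antisense gene, Gm10125, which stayed under 1 CPM in all libraries (0 to 0.798 CPM). Gm10125 was also higher in iDKO in all 4 pairs, with a fitted log2 fold change of 2.82 and both 52 DPI control libraries at 0. With only the second strand counted in the replicate 2 libraries, the log2 fold change of Zeb1 was 3.02. The replicate 1 libraries do not separate strands, and the effect of the overlap with Gm10125 on their Zeb1 counts was not tested.

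A further 13 higher genes, taken by p, had the same direction in all 4 pairs and at least 1 as mean log2 CPM, and were each called by DESeq2 and uncalled by edgeR. Flot2, which encodes the membrane scaffold flotillin 2 (ENSMUSG00000061981, on the plus strand of chromosome 11 from 78037931 to 78060434, GRCm38), was at 25.8, 27.4, 57.6 and 24 CPM across the controls and at 132, 142, 163 and 85.7 CPM across the iDKO libraries, a log2 fold change of 2.02 (SE 0.20). Ccdc88a, encoding girdin, an actin-binding protein of cell migration, was at 11.6, 7.60, 11.5 and 11.2 CPM across the controls and at 34.2, 29.97, 31.2 and 25.8 CPM across the iDKO libraries. The controls of Ccdc88a lay close together and its pair differences were 1.56, 1.97, 1.43 and 1.20. Fez1, a kinesin adaptor known from axon growth, was at 2.35, 0.278, 0.816 and 0.627 CPM across the controls and at 11.6, 3.92, 10.5 and 4.58 CPM across the iDKO libraries, or 3.16 (SE 0.37) on the log2 scale. In both of these genes, and in Flot2, the groups did not overlap.

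**Figure D1:**
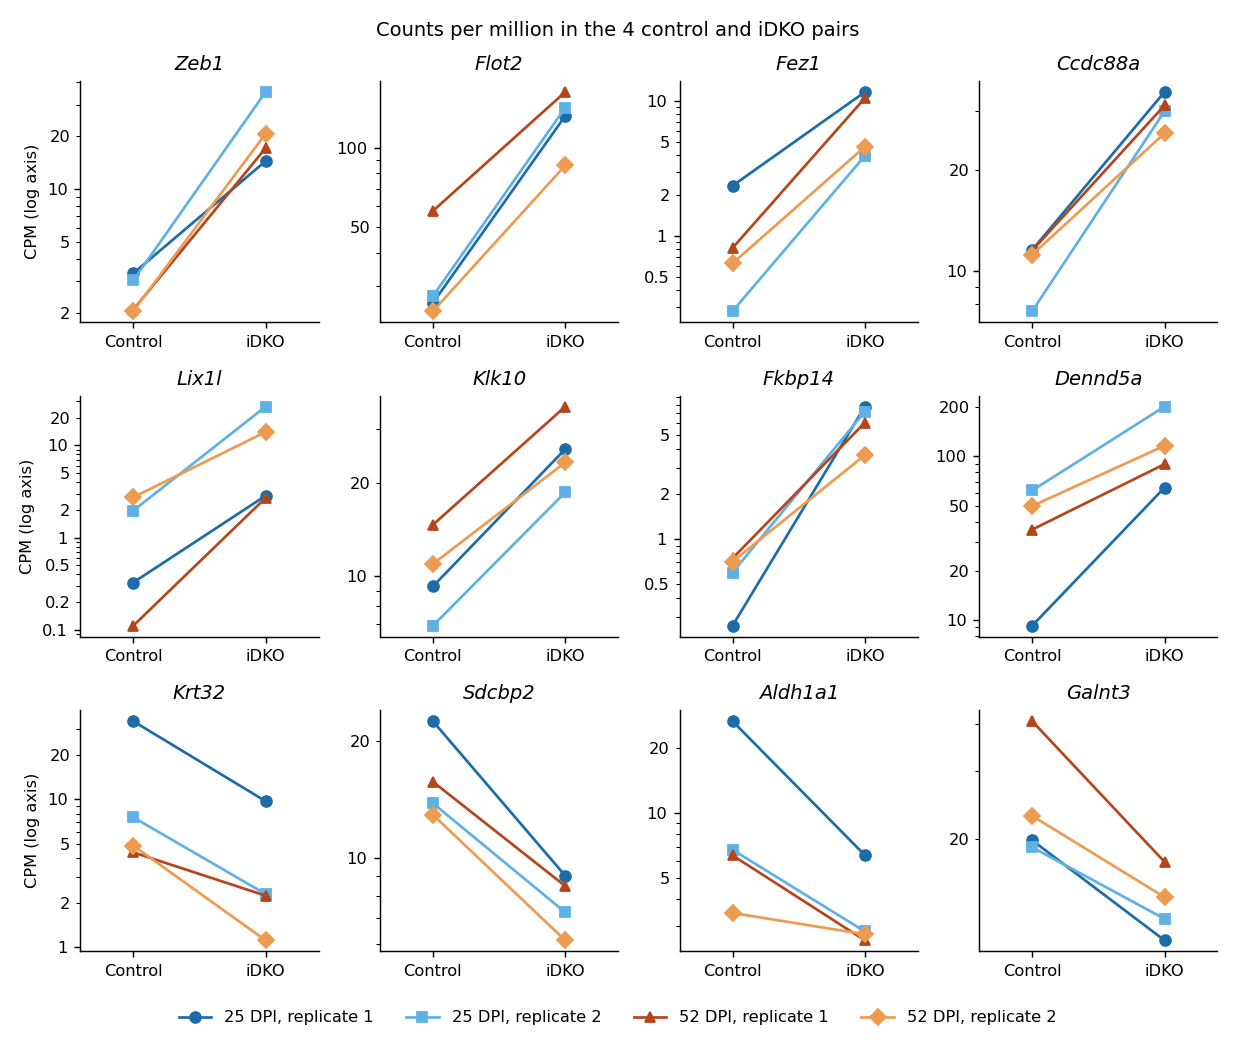
CPM (log axis) of 12 genes in the control and iDKO library of each of the 4 pairs, 1 line per pair. All lines of the upper 8 genes slope up and all lines of Krt32, Sdcbp2, Aldh1a1 and Galnt3 slope down. Zeb1 goes from at most 3.33 CPM in control to at least 14.4 CPM in iDKO.

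Fkbp14, which encodes a collagen-directed prolyl isomerase of the secretory pathway (ENSMUSG00000038074, on the minus strand of chromosome 6 from 54577604 to 54597308, GRCm38), was at 0.261, 0.596, 0.741 and 0.705 CPM across the controls and at 7.76, 7.18, 6.06 and 3.66 CPM across the iDKO libraries. No control library exceeded 1 CPM, and the log2 fold change was 3.40 (SE 0.45). Its pair differences, 4.68, 3.50, 2.96 and 2.31, were larger at 25 DPI than at 52 DPI, but the interaction of genotype with DPI was not called by edgeR (adjusted p = 0.798). Fkbp14 overlaps Plekha8 on the other strand, whose log2 fold change was 0.26. Klk10, a secreted serine protease of the kallikrein family, was at 9.28, 6.93, 14.7 and 11 CPM across the controls and at 25.8, 18.7, 35.4 and 23.3 CPM across the iDKO libraries. Every iDKO library was above every control library, with pair differences of 1.47, 1.43, 1.27 and 1.09.

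Lix1l, whose levels differed strongly between library kinds, was at 0.327, 1.97, 0.111 and 2.74 CPM across the controls and at 2.85, 26.3, 2.70 and 14 CPM across the iDKO libraries. Its groups overlapped, yet the pair differences were 2.97, 3.72, 4.16 and 2.33. Zcchc24, a zinc finger gene, had pair differences of 1.75, 2.77, 1.74 and 2.84. Cep170, encoding a centrosomal protein, had 1.00, 2.00, 1.45 and 1.65, Dmwd, a gene of WD repeats, 1.14, 1.31, 0.76 and 1.18, and Phc1, a subunit of Polycomb repressive complex 1, 1.38, 1.88, 1.69 and 2.72. For Dennd5a, a regulator of Rab GTPases in membrane traffic, they were 2.80, 1.70, 1.33 and 1.22. For Zc3h12c, of the family of regulatory RNA endonucleases, they were 0.90, 2.23, 1.57 and 1.11, and for Npr2, the receptor of C-type natriuretic peptide, 1.76, 1.66, 1.63 and 1.02. Of the 14 higher genes named so far, 10 had iDKO libraries that were all above the controls, all but Lix1l, Phc1, Zc3h12c and Npr2. Over all tested genes the share was 0.471%. The 14 were chosen by p and direction in the same libraries, which favours such separation.

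**Figure D2:**
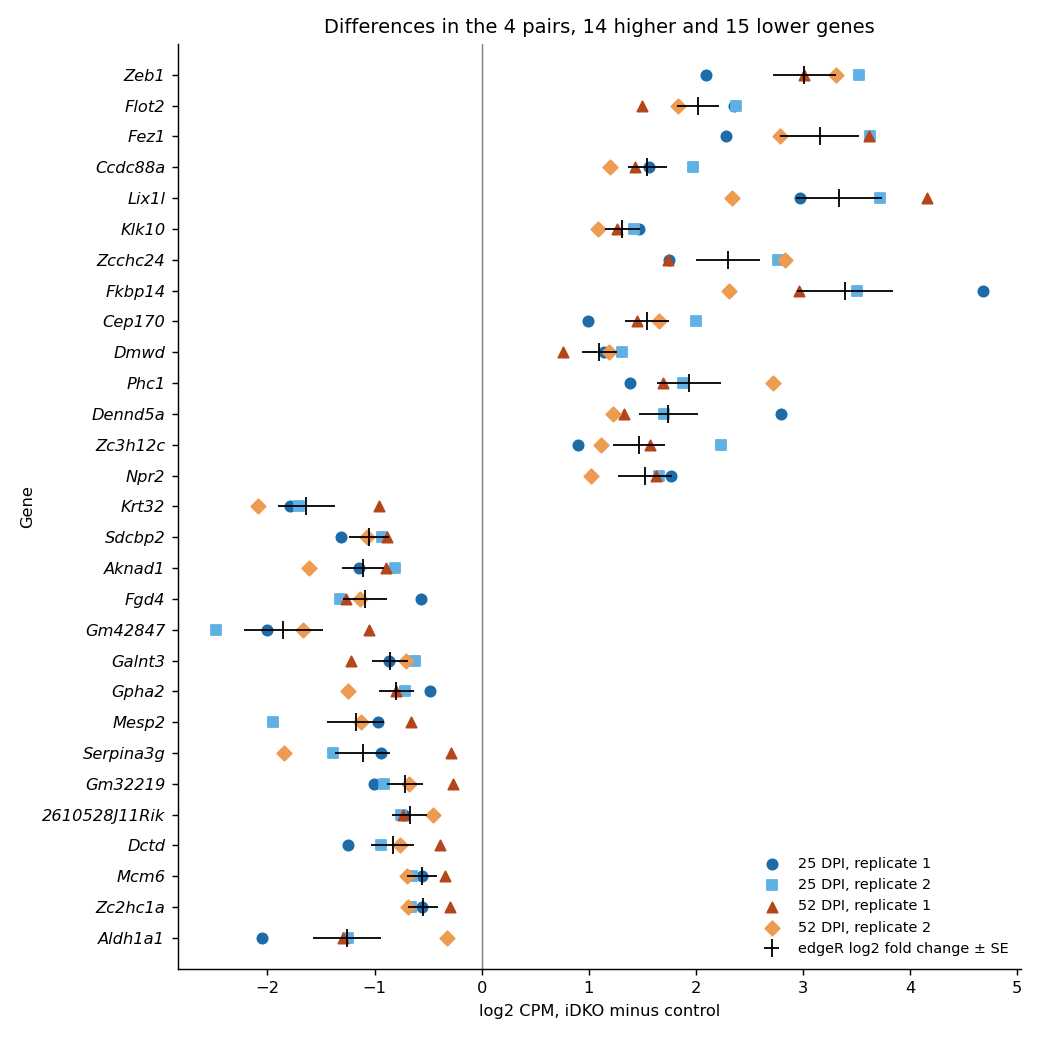
Log2 CPM difference, iDKO minus control, in each of the 4 pairs for 14 higher and 15 lower genes, with the edgeR log2 fold change and its SE as a black cross. All points lie on their gene's side of 0, which the choice of genes sets, and the higher genes reach 4.68 (Fkbp14) while the lower genes reach -2.48 (Gm42847).

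The genes that were lower in iDKO differed by less. The first 15 by p, all uncalled by edgeR, lay between -0.55 and -1.85 on the log2 scale, and DESeq2 called 10 of them. Krt32, a keratin of the hair shaft cuticle (ENSMUSG00000046095, on the minus strand of chromosome 11 from 100080848 to 100088226, GRCm38), was at 33.7, 7.54, 4.37 and 4.86 CPM across the controls and at 9.70, 2.29, 2.23 and 1.11 CPM across the iDKO libraries, with a log2 fold change of -1.64 (SE 0.26). The Control 25 DPI replicate 1 library was the highest by far, and the change recurred in the other 3 pairs (-1.79, -1.70, -0.96 and -2.09). Krt31 and Krt33a of the hair shaft list were also lower in all 4 pairs, 1 of its 19 members was higher, and the list summed to 409, 368, 582 and 259.5 CPM in the control libraries and 577, 273, 515 and 630.1 CPM in the iDKO libraries. Aldh1a1, which makes retinoic acid from retinaldehyde, was at 26.7, 6.77, 6.38 and 3.45 CPM across the controls and at 6.39, 2.83, 2.57 and 2.75 CPM across the iDKO libraries. Its pair differences, -2.05, -1.25, -1.29 and -0.32, were uneven, and the groups overlapped.

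Sdcbp2, encoding the PDZ protein syntenin 2, was at 22.5, 13.8, 15.7 and 12.9 CPM across the controls and at 9.01, 7.26, 8.48 and 6.15 CPM across the iDKO libraries, and its groups did not overlap. Fgd4, an exchange factor of the GTPase Cdc42 that binds actin, was at 13.4, 19.2, 16.8 and 19.7 CPM across the controls and at 9.01, 7.62, 6.97 and 8.96 CPM across the iDKO libraries, again without overlap. Galnt3, an enzyme that starts mucin-type O-glycosylation, was at 19.8, 19, 40.6 and 23 CPM across the controls and at 10.8, 12.3, 17.4 and 14.1 CPM across the iDKO libraries. The values of Galnt3 also separated the groups, with pair differences of -0.87, -0.62, -1.22 and -0.71. Aknad1 differed by -1.14, -0.81, -0.89 and -1.61 and Dctd, a deaminase of nucleotide synthesis that DESeq2 did not call, by -1.24, -0.94, -0.38 and -0.76, and they completed the 5 lower genes without overlap. Over all tested genes 0.235% had every iDKO library below every control library, and the choice of genes by p favours this.

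The remaining lower genes overlapped between groups. Gpha2, a glycoprotein hormone subunit, had pair differences of -0.49, -0.72, -0.80 and -1.25, Mesp2, a helix-loop-helix transcription factor, -0.97, -1.94, -0.66 and -1.13, and Serpina3g, a serpin, -0.94, -1.39, -0.29 and -1.84. Mcm6, a subunit of the replicative helicase, was at 89.4, 113, 172 and 107 CPM across the controls and at 60.9, 72.4, 136 and 65.9 CPM across the iDKO libraries, a log2 fold change of -0.56 (SE 0.14), uncalled by DESeq2 (adjusted p = 0.0636). The others were Zc2hc1a (log2 fold change -0.55, SE 0.14), 2610528J11Rik (log2 fold change -0.67, SE 0.16) and the RNAs Gm42847 (log2 fold change -1.85, SE 0.37) and Gm32219 (log2 fold change -0.72, SE 0.17). Of these, DESeq2 called Gm42847, with at most 7.27 CPM in any library.

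Further genes that DESeq2 called were chosen for naming after their values were seen. They included Tnc, encoding tenascin C, Fn1, encoding fibronectin, the gelatinase Mmp9, the collagen prolyl hydroxylase P3h1 and the actin-bundling gene Fscn1. Tnc was at 3.53, 16.4, 39.4 and 51.1 CPM across the controls and at 9.12, 56.8, 67.6 and 279 CPM across the iDKO libraries, and Fn1 at 15, 91.4, 27 and 33.9 CPM across the controls and at 36.2, 305, 51.3 and 42.6 CPM across the iDKO libraries. Both were higher in iDKO in all 4 pairs and varied among controls by more than the genotype difference. Mmp9 was at 3.46, 2.26, 9.64 and 8.78 CPM across the controls and at 6.50, 6.75, 18.9 and 16.2 CPM across the iDKO libraries, with pair differences of 0.90, 1.56, 0.97 and 0.88. P3h1 differed by 2.72, 1.63, 1.40 and 0.99 and Fscn1 by 1.64, 1.63, 0.62 and 2.25.

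Others were chosen in the same way. Fads3, of the fatty acid desaturase family, differed by 1.26, 1.03, 0.88 and 2.54 and the elongase Elovl5 by 1.71, 0.69, 0.39 and 1.53. The sialyltransferases St6galnac6 and St3gal4 were higher by 1.64 (SE 0.28) and 1.22 (SE 0.26) on the log2 scale, and Alox5, the lipoxygenase that makes leukotrienes, by 1.14 (SE 0.27). S100a9, an alarmin subunit, was at 0, 0.0993, 0.408 and 0.470 CPM across the controls and at 0.228, 1.02, 3.58 and 1.70 CPM across the iDKO libraries, and its control libraries were all under 1 CPM. The list of antimicrobial and alarmin genes, to which it belongs, had 1 of 15 members higher in all 4 pairs and 3 lower, S100a10, Slpi and Hmgb1. The list of neutrophils and mast cells, which includes S100a9, had 8 named markers at 0 in all 8 libraries, among them Ly6g and Mcpt4. Its summed level was 5.75, 6.76, 9.04 and 8.53 CPM in the control libraries and 4.56, 8.88, 17.6 and 32.9 CPM in the iDKO libraries, higher in iDKO in 3 of the 4 pairs, and the part of these cells in the value of S100a9 was not tested. The flagellin receptor Tlr5 differed by 1.83, 1.32, 1.04 and 0.78, Cd1d1, which presents lipids to T cells, by 1.49, 1.40, 1.32 and 3.47, and Pvr, a nectin-like adhesion receptor, by 0.83, 1.98, 1.13 and 0.79.

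Mdga1, an adhesion molecule of the immunoglobulin family, differed by 2.49, 1.53, 0.94 and 1.87, and Grk3, a receptor kinase, by 2.04, 1.26, 0.95 and 1.44. Vipr1, a neuropeptide receptor, differed by 1.44, 1.73, 0.92 and 1.13, and Rap1gap2, a GTPase activator, by 4.43, 2.05, 1.48 and 2.31. Among weakly expressed genes, Gm3650, an unprocessed pseudogene whose reads may be shared with related copies, was at 0, 0.0199, 0.0371 and 0.0784 CPM across the controls and at 1.03, 2.39, 0.911 and 1.243 CPM across the iDKO libraries, and Aox4, an aldehyde oxidase, at 0, 0.119, 0.111 and 0 CPM across the controls and at 1.60, 0.871, 1.16 and 1.64 CPM across the iDKO libraries. Their iDKO libraries were all above their control libraries. Best2, encoding a bestrophin chloride channel, was lower in all 4 pairs, by -1.88, -2.15, -1.41 and -3.41.

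The size of the shared change was compared between times with the pair as block. The interaction of genotype with DPI had 2 residual degrees of freedom, and edgeR called 0 genes (1116 at an unadjusted p under 0.05). Zeb1 gave 2.83 in the 25 DPI pairs and 3.19 in the 52 DPI pairs and Flot2 2.34 and 1.68. For Fkbp14 the values were 4.07 and 2.75 and for Dennd5a 2.21 and 1.30. In the replicate 1 pairs alone and the replicate 2 pairs alone, which differ in library kind, Zeb1 was at 2.57 and 3.44 and Lix1l at 3.78 and 3.08. Vim, encoding the intermediate filament vimentin, was not shared: its pair differences were -0.65, 1.04, 1.59 and 1.98.

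**Figure D3:**
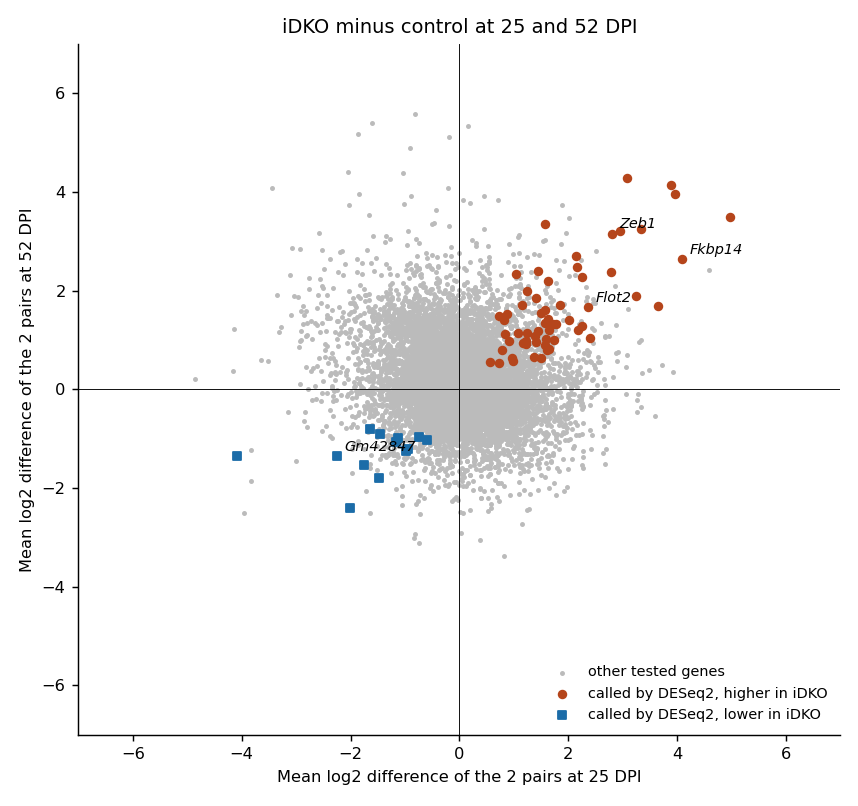
Mean log2 difference, iDKO minus control, of the 2 pairs at 25 DPI against that of the 2 pairs at 52 DPI, 1 point per tested gene. The 60 genes called higher by DESeq2 lie in the upper right and the 13 called lower in the lower left. These genes were called from the same pairs, so their position largely follows from that choice and cannot show agreement between times. The other tested genes spread around 0 without a common axis.

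Gene lists were described by how many tested members moved the same way in all 4 pairs, beside 6.73% higher and 6.7% lower of all tested genes. The lists were chosen with earlier results of these data known. Mesenchymal effectors had 6 of 21 members higher and 0 lower, with a median log2 fold change of 0.52 against 0.01 over all genes. The members were Fkbp14, Tnc, Mmp9, Mmp2 and Fn1, which had the smallest p, and the integrin Itgb3. DESeq2 called 4 of them. The list summed to 1002, 1742, 2437 and 2328 CPM in the control libraries and 1396, 2974, 2829 and 1939 CPM in the iDKO libraries. That sum was lower in iDKO in the 52 DPI replicate 2 pair and higher in the other pairs. Mmp2, the type IV collagenase, was at 48.3, 19.4, 36.4 and 24.9 CPM across the controls and at 76.6, 39.8, 51.3 and 36.3 CPM across the iDKO libraries, uncalled by DESeq2 (adjusted p = 0.0693). Of the 8 tested transition factors Zeb1 and Snai1 were higher in all 4 pairs, Snai1 at under 1 CPM in every library. The log2 fold change of Zeb2 was -0.62 (SE 0.65) and that of Snai2 -0.27 (SE 0.17), both with mixed direction.

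Dermal fibroblast markers had 5 of 22 members higher in all 4 pairs and 0 lower. These were Col1a1, Col6a3, Thy1, Pdgfrb and Crabp1. Col1a1, encoding a chain of type I collagen, was at 0.719, 14.5, 1.96 and 2.90 CPM across the controls and at 1.94, 55.4, 2.32 and 9.09 CPM across the iDKO libraries, and Col6a3, a chain of collagen VI, at 0.981, 5.80, 0.148 and 1.25 CPM across the controls and at 1.94, 13.2, 0.377 and 10.7 CPM across the iDKO libraries. The summed level of the list was 571, 961, 1849 and 1742 CPM in the control libraries and 894, 1569, 2121 and 763 CPM in the iDKO libraries, so it was higher in iDKO in 3 of the 4 pairs. None of its 24 named markers, tested or not, was at 0 in all libraries. The part of these markers in the mesenchymal values was not tested.

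In the list of epithelial transcription and splicing factors 5 of 20 members were higher in all 4 pairs and 0 lower, none called by DESeq2. As 6.7% of all tested genes were lower in all 4 pairs, 0 lower is not unusual in a list of about 20. Grhl3, a regulator of barrier formation, was at 69.5, 62.9, 56.7 and 48.3 CPM across the controls and at 74.3, 102, 81.9 and 84.9 CPM across the iDKO libraries. Cebpa differed by 1.31, 0.47, 0.14 and 0.59, Barx2 by 0.21, 0.45, 0.41 and 1.58, and Zfp750, a driver of terminal differentiation, by 0.17, 1.41, 0.15 and 0.53. Among genes known to be repressed by Zeb1, 3 of 19 were higher in all 4 pairs (Cgn, Patj and Esrp1) and 0 lower. Cdh1, encoding E-cadherin and the textbook member of this list, had pair differences of 0.63, 0.20, -0.44 and -0.01. Desmosome genes had 1 member higher, Dsc1 (log2 fold change 0.76, SE 0.18), and 1 lower, Perp (log2 fold change -0.14, SE 0.18), of 13.

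Lipid and barrier lists held more shared increases than decreases. Of 33 sebaceous and neutral lipid genes 7 were higher in all 4 pairs and 1 lower, and DESeq2 called Fads3 and Elovl5. Fads1, a fatty acid desaturase, differed by 0.60, 0.92, 0.65 and 1.86, Acacb, an acetyl-CoA carboxylase, by 2.56, 0.88, 1.02 and 0.44, and Fasn, the fatty acid synthase, by 0.83, 0.76, 0.38 and 0.18. Barrier lipid synthesis had 5 of 32 higher (Ephx3, Pnpla1, Lipn, Cyp4f39 and Smpd1) and 1 lower, Sptlc3, of which DESeq2 called 0. Pnpla1, which makes acylceramides, was at 0.80 on the log2 scale (SE 0.30) and Sptlc3, a subunit of serine palmitoyltransferase, at -0.54 (SE 0.17). Kallikreins and protease inhibitors had 4 of 33 higher, Klk10, Wfdc5, Klk8 and Tmprss4, and 1 lower, Slpi, of which DESeq2 called Klk10 alone. Klk8 was at 22.3, 8.28, 10.5 and 4.70 CPM across the controls and at 30.6, 13, 22.4 and 38.8 CPM across the iDKO libraries. Retinoid and vitamin D genes had 5 of 19 higher and 1, Aldh1a1, lower.

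Immune lists were mostly mixed. The type I interferon response had 5 of 30 members higher in all 4 pairs and 0 lower, with the smallest p for Ddx58 (log2 fold change 0.65, SE 0.19), Isg20 (log2 fold change 0.59, SE 0.20), Mx2 (log2 fold change 0.82, SE 0.31), Ifit2 (log2 fold change 1.42, SE 0.55) and Stat2 (log2 fold change 0.47, SE 0.19), none called by DESeq2. The type 17 response had 0 of 22 in either direction. T cell genes had 2 of 40 higher, Thy1 and Ccr7, and list medians of -1.78, -0.51, 0.34 and 2.43 in the 4 pairs. The sign of that median was negative in both 25 DPI pairs and positive in both 52 DPI pairs. Langerhans cell genes had 2 of 18 higher and 1 lower, with list medians of -1.0, 1.60, 1.21 and 0.89. Their summed levels were 2605, 482, 1206 and 1014 CPM in the control libraries and 1244, 1015, 2019 and 1762 CPM in the iDKO libraries. Of 20 chemokines Cx3cl1 was higher in all 4 pairs, and Ccl22, called by DESeq2, was at 15.8, 1.39, 8.75 and 6.11 CPM across the controls and at 14.9, 30.6, 38.3 and 44 CPM across the iDKO libraries, without a gain in the 25 DPI replicate 1 pair.

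In the lists that follow few members had a shared direction, the ribosomal, heat shock and mitochondrial genome lists aside. Of 53 ribosomal protein genes 0 were higher and 8 lower in all 4 pairs and none was called by DESeq2. Examples are Rpl35 (log2 fold change -0.23, SE 0.13) and Rpl11 (log2 fold change -0.25, SE 0.16). Heat shock and cytosolic chaperone genes had 0 of 16 higher and 4 lower, Hspb1, Dnaja1, Hsp90aa1 and Hsp90ab1, also uncalled. With library size alone as scaling the ribosomal count was 3 lower and 0 higher and the heat shock count was 2 and 0. Oxidative phosphorylation (37 genes) and the EGF receptor pathway (22) had 0 members in either direction. Of 13 genes of the mitochondrial genome 2 were higher (15.4%) and 0 lower, and 4 and 0 with library size alone. Glycolysis and hypoxia genes had 2 of 34 higher and 1 lower. The cell cycle list had 1 of 41 higher and 3 lower, with Mcm6 first by p, a share lower near that of all tested genes. Basal keratinocyte genes had 1 of 16 lower, Krt15 (log2 fold change -0.66, SE 0.23), and 0 higher, which is again near the share of all tested genes.

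**Figure D4:**
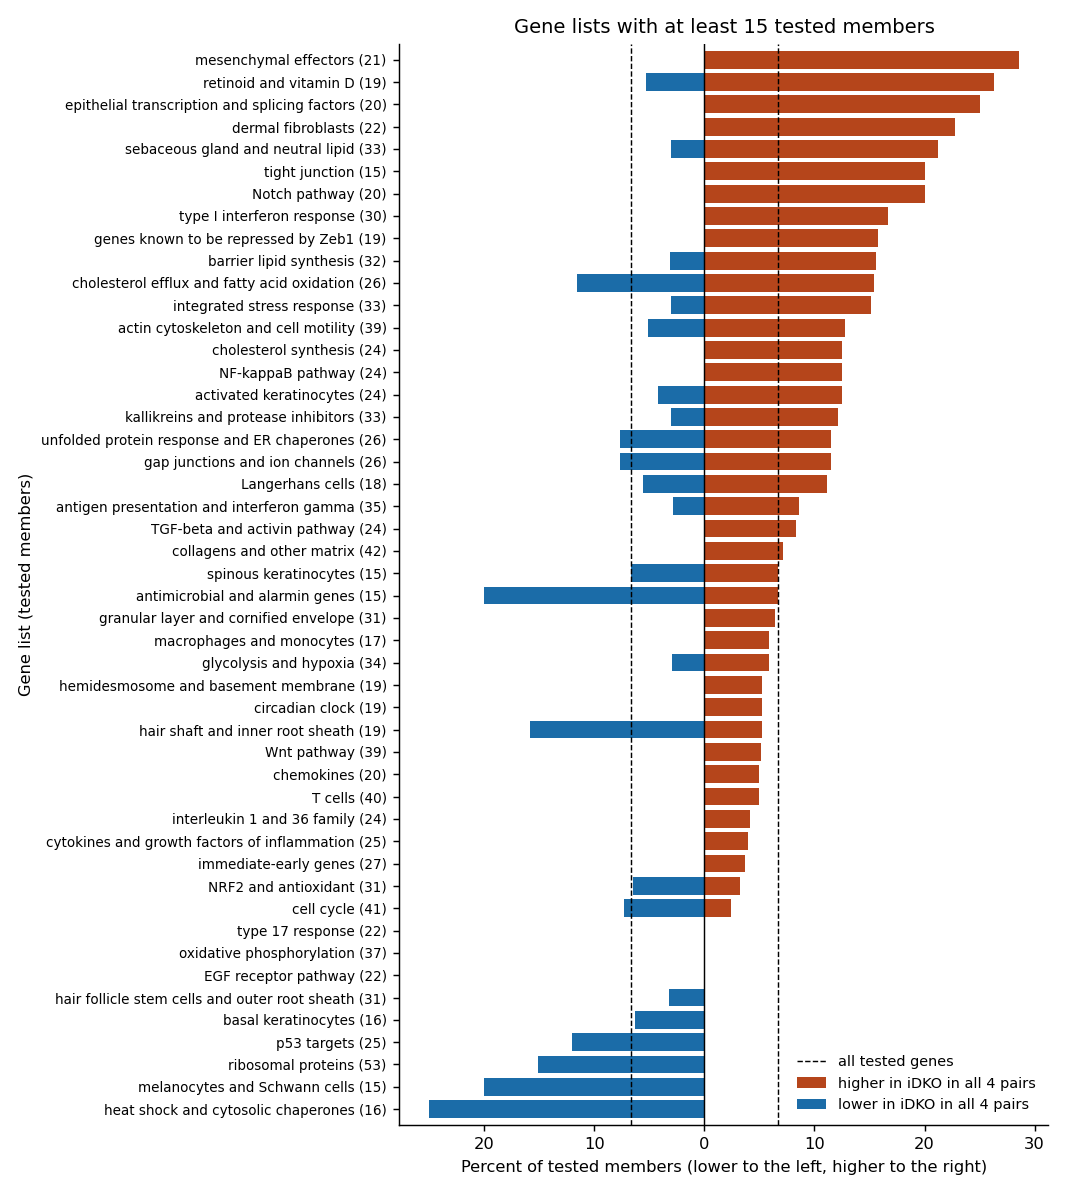
Percent of tested members that were higher (right) or lower (left) in iDKO in all 4 pairs, for the 48 gene lists with at least 15 tested members. Dashed lines mark all tested genes, 6.73% and 6.7%. The lists were chosen with earlier results of these data known. Mesenchymal effectors reach 28.6% higher, and heat shock genes 25.0% lower, which is 4 of 16 genes.

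Promoters of the shared genes were searched for the core that Ovol1 binds, CCGTTA, on both strands of the RefSeq window from 250 bases before to 50 bases after each start (GRCm38.p6). The reverse complement, TAACGG, counts as the opposite strand, and the search allows overlaps with other motifs. The core was in 11 of 44 genes with a promoter in the table, 25%, among those called by DESeq2 and higher in all 4 pairs. It was in 0 of 10 genes of the lower set, in 495 of 11797 tested genes (4.20%) and in 3.15% of all 27025 genes of the table. Promoter GC content was 61.2% in the first set and 60% over tested genes (medians). Zeb1, Gm42847 and Zc2hc1a had no entry in the table.

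The 11 genes were Fez1, with 2 sites, Ccdc88a, Lix1l, Dmwd, P3h1, Tnc, Enpp4, Gchfr, Slc9a5, Ttc7b and Dlx4os. Their 12 sites lay between -244 and 19, counted as the motif's first base from the start at 0, and 11 of the 12 were on the strand of the gene, against 52.7% of the sites in tested genes. The windows are shown in the direction of the gene, with the core in capitals, because they let the neighbouring bases be compared.
Ccdc88a, chr11:29373644-29373673, plus strand: gcggttccgaggCCGTTAccctagctcctc
Lix1l, chr3:96601116-96601145, plus strand: gggtagctgggaCCGTTAgctcgccaggct
Fez1, chr9:36833324-36833362, plus strand: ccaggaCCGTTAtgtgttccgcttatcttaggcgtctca
Fez1, chr9:36832697-36832726, plus strand: ccctgggcgcgcCCGTTAggcgggttcccg
Dmwd, chr7:19076072-19076131, plus strand: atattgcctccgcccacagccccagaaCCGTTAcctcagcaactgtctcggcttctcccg
Tnc, chr4:64047088-64047147, minus strand: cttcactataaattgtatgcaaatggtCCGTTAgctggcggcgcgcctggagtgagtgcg
P3h1, chr4:119232922-119232951, plus strand: aggcgagcagtcCCGTTAagtggaggagca
Enpp4, chr17:44106019-44106059, minus strand: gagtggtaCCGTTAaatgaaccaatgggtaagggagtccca
Slc9a5, chr8:105348073-105348132, plus strand: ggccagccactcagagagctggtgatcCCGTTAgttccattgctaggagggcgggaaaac
Ttc7b, chr12:100520798-100520827, minus strand: cggccggcgttcCCGTTAcgccgccgagcc
Dlx4os, chr11:95144877-95144936, plus strand: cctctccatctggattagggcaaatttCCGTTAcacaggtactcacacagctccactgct
Gchfr, chr2:119167787-119167816, plus strand: cagagcagggagTAACGGgactgtggtcgc

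The genes behind these sites have different functions. Enpp4, an ectonucleotidase, was at 1.5, 0.615, 0.371 and 1.18 CPM across the controls and at 2.62, 3.37, 5.12 and 10.2 CPM across the iDKO libraries. Gchfr, the feedback regulator of GTP cyclohydrolase, was at 2.81, 0.0199, 0.148 and 0 CPM across the controls and at 10.2, 1.20, 1.92 and 1.5 CPM across the iDKO libraries. Slc9a5, a sodium and proton exchanger, differed by 5.17, 2.11, 1.68 and 1.69, Ttc7b by 1.31, 1.52, 0.77 and 2.92, and the antisense RNA Dlx4os by 2.33, 1.35, 0.98 and 2.45. In all of these the iDKO library was higher in each pair, which is how the set was chosen.

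Read from the motif, 69 of the 495 tested genes with the core were higher in all 4 pairs (13.9%) and 29 lower in all 4 (5.86%). Without it the values were 6.46% and 7.0% of 11305 genes. The median log2 fold change was 0.04 with the core and 0.0091 without it. With the core on the gene strand 16.3% of 264 genes were higher in all 4 pairs, and with it on the opposite strand alone 11.3% of 231. The split by strand was chosen after the sites were seen. Among genes higher in all 4 pairs the core was in 24.3% of ranks 1 to 50 by p, and in 6.67%, 9.72%, 8.21% and 7.60% of ranks 51 to 100, 101 to 200, 201 to 400 and 401 to 1201. Without the 25 DPI replicate 1 pair DESeq2 called 274 genes, and the core was in 14 of the 132 higher ones with a promoter (10.6%). A match is a description of these letters, not of binding.

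**Figure D5:**
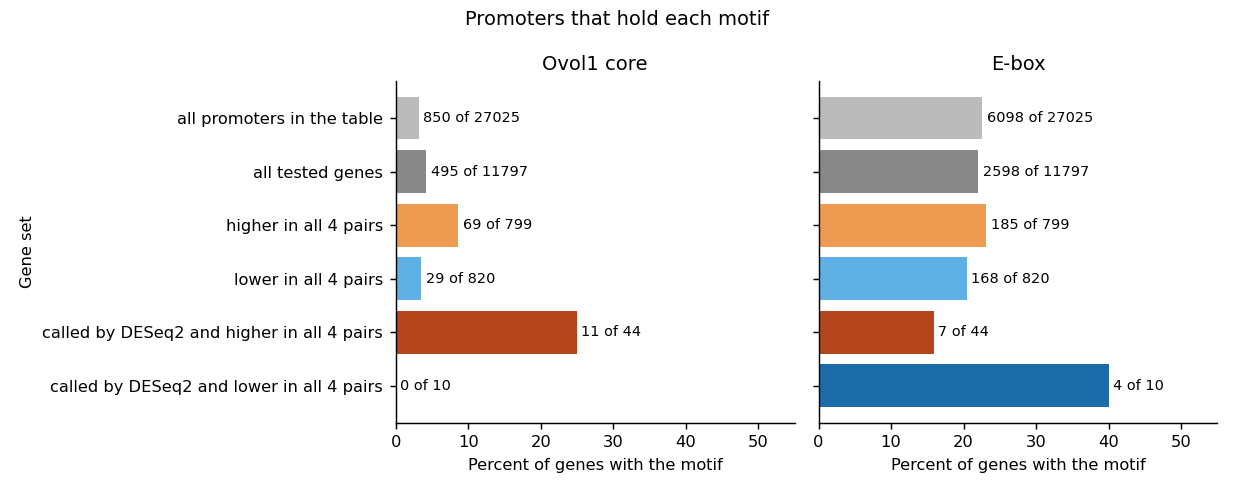
Percent of genes with a promoter in the RefSeq table that hold the Ovol1 core (left) or the E-box (right) on either strand, by gene set, with counts beside the bars. The Ovol1 core is in 11 of 44 genes called higher and 0 of 10 called lower, against 495 of 11797 tested genes.

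The E-box CACCTG, which Zeb1 binds, was searched in the same windows. It was in 40.00% of the genes that DESeq2 called and that were lower in all 4 pairs (4 of 10), 15.9% of those higher (7 of 44) and 22% of tested genes. Among the 15 lower genes named above it was in 7 of the 13 with a promoter, 53.8%, with a median GC content of 52.7%. The wider sets did not differ in this way, with 20.5% of all genes lower in all 4 pairs and 23.2% of those higher. The 4 called genes were Fgd4, Galnt3, Gpha2 and Aldh1a1, and one upstream site of each is shown with the E-box or its reverse complement, CAGGTG, in capitals.
Fgd4, chr16:16560364-16560423, minus strand: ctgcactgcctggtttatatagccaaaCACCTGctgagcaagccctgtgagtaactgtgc
Galnt3, chr2:66124818-66124877, minus strand: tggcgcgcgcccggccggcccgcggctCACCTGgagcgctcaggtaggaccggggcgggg
Gpha2, chr19:6226241-6226300, plus strand: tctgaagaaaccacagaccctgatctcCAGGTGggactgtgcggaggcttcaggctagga
Aldh1a1, chr19:20492393-20492452, plus strand: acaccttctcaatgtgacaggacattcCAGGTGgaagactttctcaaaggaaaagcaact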

How the data were processed

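For each of 8 libraries the authors deposited a table of whole-number read counts over 54838 genes. The tables have no header, and their layout is that of STAR: 1 column ignores strand and the others count each strand. Symbols were found for 54723 genes, and 115 kept their identifier. Per the submitters' processing notes the tools were STAR 2.5.2a, Trimmomatic 0.35, DESeq2 1.24.0 and FastQC 0.11.9, with GRCm38 and mm10, at settings not given in the sources used here. Per the labels' protocols libraries were made with a SMART-seq v4 kit.

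Column 2, which ignores strand, was analysed, so strand does not separate the reads of genes that overlap on opposite strands. This touches 9 of the 30 genes chosen by rank. Genes were filtered with filterByExpr on the 4 groups, scaled by TMM and fitted with edgeR 4.0.16 (R 4.3.3, quasi-likelihood) with the pair as block and genotype as term, with 3 residual degrees of freedom, and p values were adjusted by Benjamini-Hochberg over 17839 genes. P values thus measure how the difference varied between pairs. DESeq2 1.42.0 and limma-voom (limma 3.58.1) were alternatives, and 1384 adjusted p of DESeq2 are NA. Log2 differences per pair use a prior count of 1. Replicate numbers come from the labels, and libraries were paired by DPI and number. Same-numbered libraries deviated together (r = 0.394 to 0.779 over genes in all 6 pairs of groups). Groups of different DPI, which form no pair, gave 0.394 to 0.495. Library kind also differs with the number, so these values cannot show which libraries belong together.

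The genes chosen were the 15 in each direction with the same direction in all 4 pairs and a mean log2 CPM of at least 1, called genes first and then by unadjusted p, up to 5 members of each described list by p, the targeted genes, Zeb1 and Vim. Some results, among them 1 of these 30 genes, are not reported here. Promoter sequences are those of RefSeq (GRCm38.p6), and they were read for genes called by DESeq2 because edgeR called 1. The comparison, the 59 gene lists and the motifs were chosen with earlier results of these data known. The fitting code was tested on simulated data.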

Additional observations from a re-analysis of the deposited data

Results flagged for a closer look

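Over the 4 pair differences of 37 genes checked for a pair far from the other pairs, 2 stood apart, and chance alone gives about 1 in 20. Zeb2, a transition factor related to Zeb1, differed by -3.56 on the log2 scale in the 25 DPI replicate 1 pair and by -0.15, -0.19 and 0.46 in the others. Its level in that Control library was 3.14 CPM, against 0.228 CPM in its iDKO partner. The gene 2610528J11Rik differed by -0.46 in the 52 DPI replicate 2 pair, and by -0.73, -0.75 and -0.74 in the others, with the same direction in all 4.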

How the results depend on the processing

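The counts of called genes depended on the tool, the filter and the pairs. The 30 genes chosen by rank have 1 direction in all 4 pairs by choice, so their sign with fewer pairs is set by that choice. edgeR called 1 gene in the main analysis, 59 with no filter on low counts (45 of them among the 73 of DESeq2) and 0 with at least 10 counts in every library (566 at an unadjusted p under 0.05). In place of edgeR, DESeq2 called 73 and limma-voom 1. Pairing mattered to these counts: with no replicate block edgeR called 0 (130 at an unadjusted p under 0.05), and with a replicate block by number only 0 (331). Leaving out a pair gave 0 to 2, with 2 without 25 DPI replicate 1, Zeb1 among them, and 0 without 25 DPI replicate 2 or 52 DPI replicate 1. Replicate 1 pairs alone gave 14, replicate 2 pairs alone 0 (984 at an unadjusted p under 0.05) and the 52 DPI pairs alone 0 (1238). The interaction with DPI gave 26 with no filter. Calls by DESeq2 numbered 8 without the block, 25 with the block by number, 15 to 274 on leaving out a pair (15 without 25 DPI replicate 2, 274 without 25 DPI replicate 1), 15 and 136 in the replicate 1 and 2 pairs, and 38 and 151 in the 25 and 52 DPI pairs. Genes higher in every pair numbered 2057 to 3031 with a pair left out, 3670 and 4284 in the replicate 1 and 2 pairs, 4167 and 4691 in the 25 and 52 DPI pairs, and 137 with a difference of at least 0.5. Genes lower in every pair numbered 1994 to 3090, 3906 and 5082, 4723 and 4627, and 50. Fewer pairs make a shared direction easier to meet. The share of higher called genes with the Ovol1 core ran from 10.6% to 35.3% with a pair left out, and was 10% and 9.33% in the replicate 1 and 2 pairs and 7.59% in the 52 DPI pairs. Zeb2 turned from -0.62 to 0.13 in the replicate 2 pairs and to 0.12 in the 52 DPI pairs, and ran from -0.96 to 0.021 with a pair left out. Cdh1 ran from -0.075 to 0.28 with a pair left out and was -0.20 in the 52 DPI pairs. The cause of these differences was not tested. The 25 and 52 DPI pairs alone, and DESeq2 under each further choice, were chosen after seeing the data.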
